A study of Mus musculus with 6 samples.

Results

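The genes of class I antigen presentation were followed in mouse embryonic stem cells (mESC) after acute loss of the TET dioxygenases, the enzymes that oxidize 5-methylcytosine. The 10 members were taken by name: the heavy chains *H2-K1* and *H2-D1*, the light chain *B2m*, the peptide transporter genes *Tap1* and *Tap2*, the loading factor *Tapbp*, the immunoproteasome subunits *Psmb8*, *Psmb9* and *Psmb10*, and the transactivator *Nlrc5*. Of these 10 genes, 8 matched one of the 22380 gene identifiers of the table, and 6 averaged 10 or more normalized counts over the samples and were tested. *Psmb9* and *Nlrc5* matched no identifier, and their expression was not analysed here.

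Class I molecules carry peptides of cytosolic proteins to the cell surface, where CD8 T cells read them and natural killer cells sense their absence. Proteasomes cut the peptides, the TAP transporter moves them into the endoplasmic reticulum, and tapasin holds the empty heavy chain and its light chain, β2-microglobulin, beside TAP until a peptide binds. Pluripotent cells are known for low class I levels, and in most cell types interferon raises the whole set through IRF factors, NF-κB and NLRC5, which act on short boxes upstream of the genes.

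All 6 samples carried *CreERT2*, a tamoxifen-dependent recombinase driven by the ubiquitin C promoter, and one *Gt(ROSA)26Sor* allele with H2B-EGFP and GPI-mCherry reporters behind a stop cassette that recombination removes. The 3 *Ctrl* samples had no floxed *Tet* allele, and the 3 *Tet iTKO* samples were homozygous for floxed *Tet1*, *Tet2* and *Tet3*. Both groups grew on mouse embryonic fibroblast feeders in medium with the inhibitors CHIR99021 and PD0325901. They received 1 µM 4-hydroxytamoxifen, called tamoxifen in the sample titles, for 2.5 days and were harvested 4 days later, at day 6.5. Live cells that were CD326+, GFP+ and Thy1.2- were sorted before RNA was taken, a gate that selects against feeders.

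Normalized counts summed to between 4210784 and 4219665 in *Ctrl* and to between 3964824 and 3996522 in *Tet iTKO* samples. Over whole genes, *Tet1* had 682 to 716 normalized counts in the *Ctrl* samples and 753 to 895 in *Tet iTKO*, *Tet2* had 170 to 249 and 211 to 268, and *Tet3* had 13 to 28 and 3 to 10. Whole-gene values include exons outside the deletion, so they do not check it. *Khdc3*, the gene named in the title of the study, had 481 to 646 and 83 to 119. Of 11 mESC marker genes, 10 were tested, 2 were higher and 4 were lower by limma, against 16.4% and 18.4% over all genes tested. *Pou5f1*, which encodes OCT4, had at least 4318 normalized counts in every sample and was among the lower markers (log2 fold change -0.29, limma adjusted p = 5.69e-06). With a loess correction for transcript GC content and length, *Pou5f1* stayed lower (-0.31) and *Epcam* higher (0.42). The calls of *Nanog*, *Zfp42* and *Esrrb* were lost in that fit. *Dppa5a* turned from -0.39, called lower, to 0.15, called higher (limma adjusted p = 0.0015). *Tfcp2l1* and *Utf1* were called lower only there, and *Tdgf1* higher.

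The upstream stretches of the heavy chain and light chain genes are shown because these are the members that pair at the cell surface. They come from the RefSeq promoter windows on GRCm38.p6, which run from 250 bases before to 50 bases after a gene's start. Capitals mark matches on either strand to 4 motifs: κB (GGGA, any 4 bases, then CC), an IRF motif (AANNGAAA), the CRE core (TGACG) and CCAAT. Adjoining capitals in the κB run are a pair of overlapping matches.
*H2-K1*, chr17:34000349-34000468, minus strand: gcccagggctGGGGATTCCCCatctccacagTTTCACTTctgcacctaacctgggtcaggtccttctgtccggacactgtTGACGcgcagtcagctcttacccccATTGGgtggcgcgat
*H2-D1*, chr17:35262913-35263055, plus strand: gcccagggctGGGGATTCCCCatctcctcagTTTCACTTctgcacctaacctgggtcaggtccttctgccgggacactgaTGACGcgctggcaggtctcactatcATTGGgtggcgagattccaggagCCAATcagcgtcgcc
*B2m*, chr2:122147540-122147648, plus strand: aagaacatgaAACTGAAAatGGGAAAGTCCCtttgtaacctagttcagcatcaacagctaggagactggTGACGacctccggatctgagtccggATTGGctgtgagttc

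The *H2-K1* and *H2-D1* stretches hold κB, IRF, CRE core and CCAAT matches in the same order, and 108 of 120 bases aligned without a gap were identical (90%). In *B2m* the IRF match comes before the κB match. Of all 32851 windows, 20.7% held the κB motif, 23.9% the IRF motif, 20.8% the CRE core, 37.4% CCAAT, and 0.286% all 4. The windows of *Tap1* and *Psmb9* held a CRE core and CCAAT, that of *Tapbp* held CCAAT alone, and those of *Psmb8* and *Psmb10* held none of the 4 motifs, which says only that these letters are not in these windows. No window was given for *Tap2* or *Nlrc5*. A match is a description and not a shown binding site.

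Of the 6 class I genes tested, 3 were higher in *Tet iTKO* (*H2-K1*, *H2-D1* and *Tap1*), none was lower, and 3 did not pass the test (*B2m*, *Tapbp* and *Psmb10*), by limma at a Benjamini-Hochberg adjusted p under 0.05. Over all 10524 genes tested, 16.4% were called higher and 18.4% lower, so 1731 genes rose and 1934 fell. At an unadjusted p under 0.05, limma also gave 0 lower class I genes. With a loess correction for transcript GC content and length these numbers were 1014 and 2068. The median log2 fold change was 0.72 over the 6 class I genes and 0.01 over all genes tested. *Tap1* reached the mean of 10 only through its *Tet iTKO* values, so its place among the tested genes is not independent of its difference. The same holds for the count of 3 higher among 6 and for the median of 0.72, which both include *Tap1*.

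**Figure D1:**
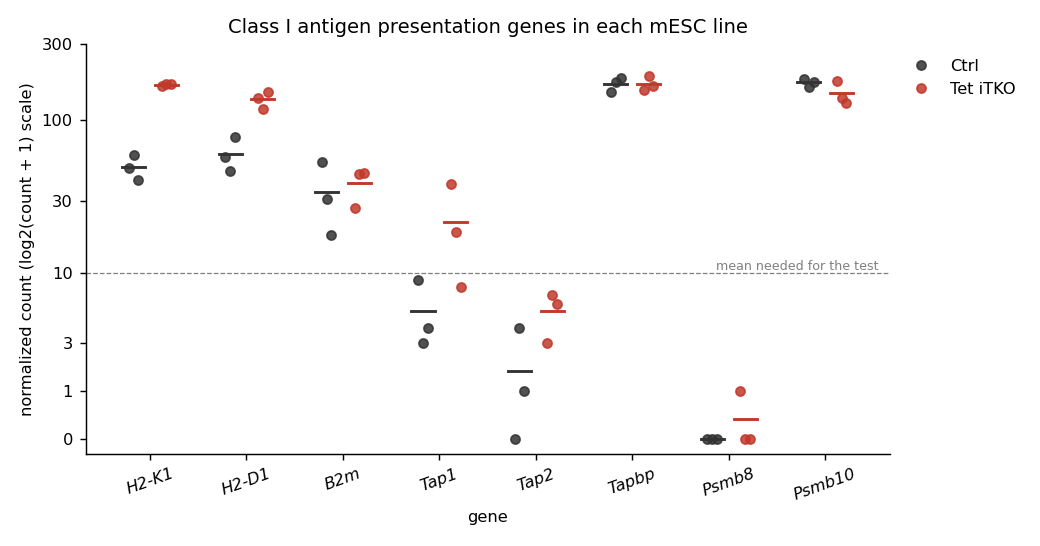
Normalized counts (log2(count + 1) scale) of the 8 matched class I genes, with 1 point per sample and a bar at the group mean, for 3 *Ctrl* and 3 *Tet iTKO* samples. The groups lie apart for *H2-K1* and *H2-D1* and overlap for the other 6 genes.

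*H2-K1*, a classical heavy chain that presents peptides to CD8 T cells, lies on chromosome 17 of GRCm38 from 33996017 to 34000347. It had 49, 60 and 41 normalized counts in the *Ctrl* samples and 164, 168 and 167 in the *Tet iTKO* samples. All *Tet iTKO* values were above all *Ctrl* values. On the log2 scale it rose by 1.73 (SE 0.19, limma adjusted p = 5.53e-09). The mean rose 3.33-fold, from 50.0 ± 9.54 to 166 ± 2.08 (SD, n = 3).

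*H2-D1*, the other classical heavy chain gene among the members, lies on the same chromosome from 35262730 to 35267499. It had 58, 47 and 77 normalized counts in the *Ctrl* samples and 136, 117 and 150 in *Tet iTKO*. These groups did not overlap either. On the log2 scale it rose by 1.16 (SE 0.20, limma adjusted p = 2.35e-05), and the mean rose 2.21-fold, from 60.7 ± 15.2 to 134 ± 16.6 (SD, n = 3). *H2-K1* and *H2-D1* were the 2 members whose groups did not overlap, both with *Tet iTKO* above, against 21.2% of all genes tested.

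Both heavy chain genes were called in all 24 alternative fits, with log2 fold changes from 1.599 to 1.868 for *H2-K1* and from 0.99 to 1.34 for *H2-D1*. Class I genes are close copies of one another, and only uniquely aligned reads were counted. Of the 50-base windows of the GENCODE M21 transcripts, 9.63% for *H2-K1* and 12.8% for *H2-D1* also occur in another gene's transcript. Read pairs that lie wholly within such windows could not be placed uniquely, so the values of both genes are uncertain, and how many reads this removed was not measured.

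*B2m* encodes the light chain that every class I heavy chain needs to reach the surface. It had 54, 31 and 18 normalized counts in the *Ctrl* samples and 27, 45 and 46 in *Tet iTKO*. The groups overlapped, with the highest and the lowest value both in *Ctrl*. Its log2 fold change was 0.29 (95% interval -0.43 to 1.00, limma adjusted p = 0.57), which does not show that *B2m* was alike in both groups. With the GC content and length correction, in the 9 forms tried, the log2 fold change of *B2m* was 0.74 to 0.85 with adjusted p of 0.058 to 0.113 from limma.

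The log2 ratio of *H2-K1* plus *H2-D1* to *B2m*, examined after the values were seen, was 1.79 ± 0.84 in *Ctrl* and 2.94 ± 0.42 in *Tet iTKO* (SD, n = 3). The difference of 1.15 had p = 0.2 in an exact two-sided permutation test, whose smallest p for 3 against 3 is 0.1. That design cannot reach a p under 0.05, so the test does not settle whether the heavy chains and the light chain differed.

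*Tap1* encodes one chain of the TAP transporter. It had 9, 3 and 4 normalized counts in the *Ctrl* samples and 39, 19 and 8 in *Tet iTKO*. The lowest *Tet iTKO* value was below the highest *Ctrl* value, and the group means were 5.33 ± 3.21 and 22 ± 15.7 (SD, n = 3). On the log2 scale this came to 1.72 (SE 0.63, limma adjusted p = 0.030).

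The *Tap1* call was lost in 17 of 23 alternative fits, where the largest adjusted p from limma was 0.257. Without *Tet iTKO* sample 1 its log2 fold change was 1.20 (limma adjusted p = 0.257), without *Tet iTKO* sample 2 it was 1.70 (limma adjusted p = 0.094), without *Ctrl* sample 2 it was 1.449 (limma adjusted p = 0.088) and without *Ctrl* sample 3 it was 1.61 (limma adjusted p = 0.053). *Tap1* shares 212 exonic bases with *Psmb9* on the opposite strand, 3.87% of its exons. Smart-Seq2 libraries do not mark strand, so reads in those bases cannot be told apart.

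*Tap2*, the partner of *Tap1* in the transporter, had 0, 4 and 1 normalized counts in the *Ctrl* samples and 3, 7 and 6 in *Tet iTKO*. The groups overlapped and the gene was below the mean needed for the test. *Tapbp*, which encodes tapasin, had 150, 174 and 183 normalized counts in the *Ctrl* samples and 154, 189 and 164 in *Tet iTKO*. The groups covered nearly the same range, with a log2 fold change of -0.00029 (95% interval -0.29 to 0.29, limma adjusted p = 0.999). Of its exonic bases, 24.9% overlap *Gm19412* on the opposite strand, and 149 bases overlap *Zbtb22* on the same strand.

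Interferon-induced immunoproteasome subunits replace the constitutive catalytic subunits and alter which peptides are cut. *Psmb10* had 181, 160 and 174 normalized counts in the *Ctrl* samples and 176, 136 and 128 in *Tet iTKO*. The groups overlapped through *Tet iTKO* sample 1, and the log2 fold change was -0.24 (95% interval -0.54 to 0.06, limma adjusted p = 0.22). *Psmb8* had 0 normalized counts in 5 samples and 1 in *Tet iTKO* sample 1, so both groups were under the floor of 3 counts and no fold is given.

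The constitutive counterparts of the immunoproteasome subunits had far higher counts. *Psmb6*, the counterpart of *Psmb9*, fell by 0.62 on the log2 scale (limma adjusted p = 3.03e-13), *Psmb7*, the counterpart of *Psmb10*, by 0.43 (limma adjusted p = 1.36e-06) and *Psmb5*, the counterpart of *Psmb8*, by 0.34 (limma adjusted p = 7.21e-05). With the GC content and length correction *Psmb6* fell by 0.29 and *Psmb7* by 0.21, both still called. The *Psmb5* call was lost in 11 of 24 alternative fits, among them all 9 forms of the GC content and length correction. The log2 ratio of *Psmb10* to *Psmb7* per kb of exons was -2.50 ± 0.04 in *Ctrl* and -2.31 ± 0.40 in *Tet iTKO* (SD, n = 3), a difference of 0.19 with p = 0.7 in the exact two-sided permutation test. It was the one ratio of an immunoproteasome subunit to its counterpart that could be formed. Over this ratio and that of the heavy chains to *B2m*, the Benjamini-Hochberg adjusted exact p was 0.7 and 0.4. The difference was 0.35 without *Tet iTKO* sample 3 and -0.03 without *Tet iTKO* sample 1.

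**Figure D2:**
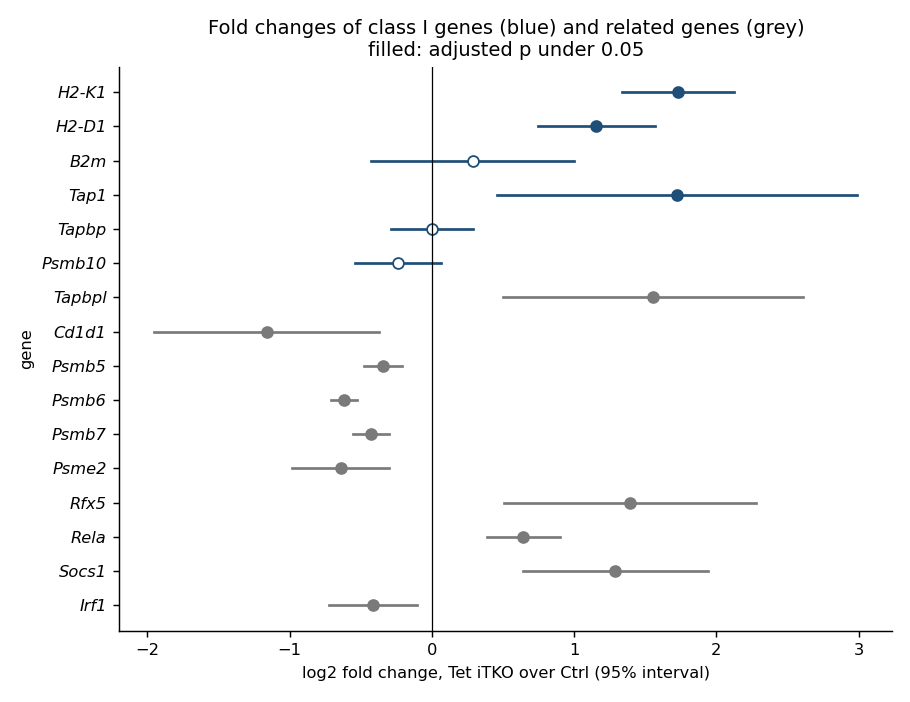
Log2 fold change, *Tet iTKO* over *Ctrl*, with 95% intervals, for the 6 class I genes tested (blue) and the related genes named by rule (grey), filled where limma's adjusted p is under 0.05. *H2-K1* at 1.73 and *H2-D1* at 1.16 have narrower intervals than *Tap1* at 1.72.

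Levels of the class I genes were compared per kb of exons, with exon lengths from GENCODE M21. In *Ctrl* the order of normalized counts per kb was *Psmb10* (101 ± 6.27), *Tapbp* (46.6 ± 4.70), *B2m* (39.9 ± 21.2), *H2-D1* (23.5 ± 5.89), *H2-K1* (17.02 ± 3.25), *Tap1* (0.974 ± 0.587), *Tap2* (0.441 ± 0.551) and *Psmb8* at 0 (SD, n = 3). *Psmb10* lay above *Tapbp* in every sample, and *H2-K1* above *Tap1*, while each of the other neighbours overlapped in range. In *Tet iTKO* the order was *Psmb10* (86.0 ± 15.1), *H2-K1* (56.6 ± 0.708), *H2-D1* (52.1 ± 6.42), *Tapbp* (46.6 ± 4.97), *B2m* (45.7 ± 12.4), *Tap1* (4.02 ± 2.87), *Tap2* (1.41 ± 0.551) and *Psmb8* (0.0986 ± 0.171). There the heavy chains, *Tapbp* and *B2m* overlapped each with its neighbour. In bulk samples, more cells with a transcript and more transcript per cell cannot be told apart.

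Other class I heavy chains were mostly scarce. Of 24 such genes, 21 matched an identifier and 5 were tested. None of the 5 was called higher by limma (1 at an unadjusted p under 0.05, *H2-Q10*) and 2 were called lower. Over all genes tested 16.4% were called higher and 18.4% lower. The median log2 fold change of the 5 was -0.32 against 0.01 over all genes. *Cd1d1*, which presents lipids, had 31, 37 and 39 normalized counts in the *Ctrl* samples and 17, 21 and 10 in *Tet iTKO*, a fall with no overlap (log2 fold change -1.16, limma adjusted p = 0.019). The *Cd1d1* call was lost in 7 of 23 alternative fits. *H2-M5* was also lower (log2 fold change -0.32, limma adjusted p = 0.011).

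Several nonclassical heavy chains were near 0 in *Ctrl* and above the floor in *Tet iTKO*, and were named after their values were seen. *H2-Q6* had 0, 1 and 0 normalized counts in the *Ctrl* samples and 8, 19 and 22 in *Tet iTKO*. *H2-Q7*, a close copy of it, had 1, 0 and 1 against 12, 15 and 22. *H2-T22* had 1, 4 and 0 against 19, 8 and 17. For these 3 genes the groups did not overlap. Of the 21 matched heavy chains, 5 had every *Tet iTKO* sample above every *Ctrl* sample and 3 had every one below. Over all 22380 identifiers these counts were 2777 and 2517. *H2-Q2*, with 1, 3 and 1 against 6, 5 and 6, and *H2-Q10* were also among the 5. *H2-Q2* was not called when every gene with a mean above 0 was tested (limma adjusted p = 0.090).

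When every gene with a mean above 0 was tested, *H2-Q6*, *H2-Q7* and *H2-T22* were called higher (limma adjusted p = 0.0019, 0.0020 and 0.016), in a fit that called 9.85% of 16064 genes higher. In that fit *H2-K1* and *H2-D1* were called higher too (limma adjusted p = 1.5e-04 and 0.0031). Shared sequence is larger in these genes: 35.0% of the 50-base windows of *H2-Q6*, 26.5% of *H2-Q7* and 53.5% of *H2-T22* occur in another gene. *H2-T22* also shares 1003 exonic bases, 29.4% of its exons, with *A930015D03Rik* on the opposite strand. Windows were matched on both strands, so such bases can be part of the 53.5%. Reads in those bases cannot be told apart. *H2-Q10* had 3, 13 and 13 normalized counts in the *Ctrl* samples and 28, 22 and 15 in *Tet iTKO*. Its log2 fold change of 1.256 did not pass (limma adjusted p = 0.069). Like *Tap1*, *H2-Q10* reached the mean of 10 only through its *Tet iTKO* values (means 9.67 and 21.7).

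**Figure D3:**
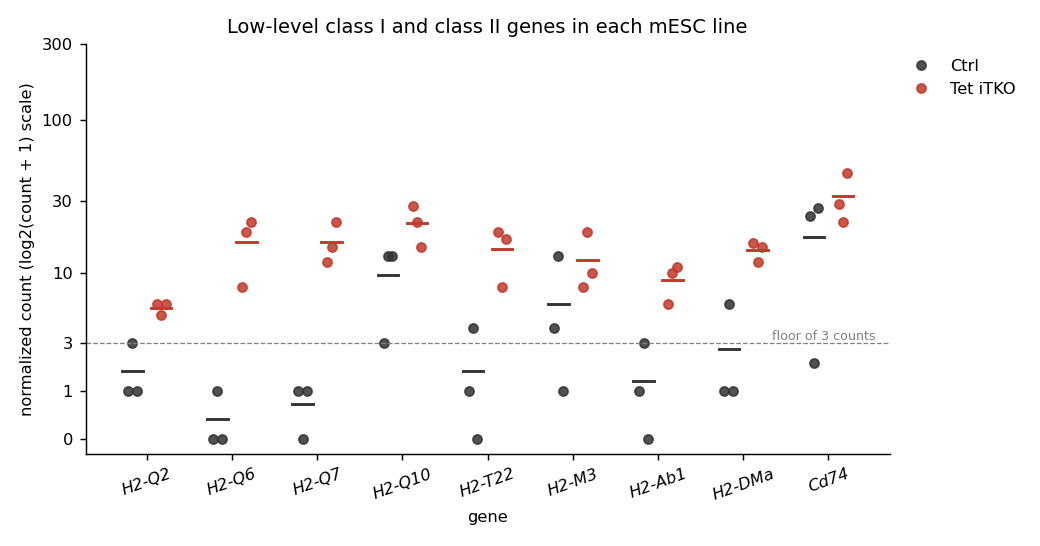
Normalized counts (log2(count + 1) scale) of class I and class II genes at low levels, chosen after their values were seen, with 1 point per sample and a bar at the group mean. *H2-Q2*, *H2-Q6*, *H2-Q7*, *H2-Q10*, *H2-T22*, *H2-Ab1* and *H2-DMa* have every *Tet iTKO* sample above every *Ctrl* sample, while *H2-M3* and *Cd74* overlap.

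Among 11 genes for peptide trimming and folding in the endoplasmic reticulum, 10 were tested, 1 was higher and 2 were lower. These stand against 16.4% higher and 18.4% lower over all genes tested. The median log2 fold change of the 10 was 0.06. The higher gene was *Tapbpl*, a tapasin-related editor of bound peptides, with 7, 4 and 13 normalized counts in the *Ctrl* samples and 24, 26 and 20 in *Tet iTKO* (log2 fold change 1.55, limma adjusted p = 0.018). Like *Tap1*, *Tapbpl* reached the mean of 10 only through its *Tet iTKO* values (means 8 and 23.3), and its call was lost in 5 of 23 alternative fits. *Hspa5*, the lumenal chaperone BiP, and the peptidase gene *Nrd1* were the lower genes. All 8 proteasome core and activator genes were tested. None was higher by limma (0 at an unadjusted p under 0.05), against 16.4% of all genes tested. The number lower was 3 with the GC content and length correction and 3 or 4 in its other forms. It was 3 without the variance trend and 5 without each sample in turn. In the reported fit 5 were lower, against 18.4% of all genes tested. Besides *Psmb5*, *Psmb6* and *Psmb7* these were *Pomp* and *Psme2*, an activator subunit, whose log2 fold change of -0.64 (limma adjusted p = 0.0025) was not called in 8 of 24 alternative fits.

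Of 12 genes for factors that bind the upstream boxes, 12 were tested, 2 were higher and 1 was lower by limma. Over all genes tested 16.4% were called higher and 18.4% lower, so these counts do not set the list apart. *Rfx5*, a subunit of the X box complex, had 9, 23 and 9 normalized counts in the *Ctrl* samples and 36, 50 and 22 in *Tet iTKO*. The groups overlapped by 1 count, and the log2 fold change was 1.39 (limma adjusted p = 0.012), a call lost in 4 of 23 alternative fits. *Rela*, the NF-κB subunit p65, had 178, 175 and 144 against 267, 262 and 246, with no overlap (log2 fold change 0.64, limma adjusted p = 1.2e-04). The *Rela* call was lost in 5 of 24 alternative fits, all of them corrections for GC content and length. *Atf1* was the lower gene.

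Of 16 interferon receptor, kinase and factor genes, 11 were tested, 1 was higher and 1 was lower, with a median log2 fold change of -0.13. Over all genes tested the shares called by limma were 16.4% higher and 18.4% lower. *Socs1*, an inhibitor of cytokine signalling, had 23, 23 and 22 normalized counts in the *Ctrl* samples and 89, 42 and 49 in *Tet iTKO* (log2 fold change 1.29, limma adjusted p = 0.0017). *Irf1*, an activator of class I genes, was lower, with 158, 154 and 195 against 123, 120 and 135 (log2 fold change -0.41, limma adjusted p = 0.031), and its call was lost in 7 of 24 alternative fits. *Irf2* had 1 normalized count in a single sample and *Irf7* had at most 1 in any.

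By limma no class II gene was called of the 2 tested among 11, against 16.4% higher and 18.4% lower over all genes tested. At an unadjusted p under 0.05, limma gave *Cd74* as higher and *H2-Eb1* as lower. *Ciita*, the class II transactivator, was at 0 in all 6 samples. *H2-Ab1* had 1, 3 and 0 normalized counts in the *Ctrl* samples and 6, 10 and 11 in *Tet iTKO*, and *H2-DMa* had 1, 6 and 1 against 16, 12 and 15. Both were under the mean needed and were called higher when all genes with a mean above 0 were tested (limma adjusted p = 0.026 and 0.024). *H2-DMa* shares 360 exonic bases, 10.4% of its exons, with *Brd2* on the opposite strand, and *Brd2* rose from between 903 and 942 to between 1152 and 1206 normalized counts, so the reads in those bases cannot be told apart. Of 11 ligands of lymphocyte receptors, 6 matched and 1 was tested, and limma called 0, also at an unadjusted p under 0.05. With 1 gene tested this says little beside the all-gene shares of 16.4% and 18.4%.

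Apart from *B2m* on chromosome 2 and *Psmb10* on chromosome 8, the matched class I genes lie on chromosome 17. Between *Tapbp* and *H2-M2* on that chromosome, an interval set after the values were seen, 74 genes outside the class I lists were tested. Of these, 17 were higher and 8 were lower, with a median log2 fold change of 0.05. That is a larger share higher and a smaller share lower than the 16.4% and 18.4% over all genes tested. The 7 tested genes of the class I lists there had a median of 1.16. *Tap1* and *H2-Q10* are among them and reached the mean of 10 only through their *Tet iTKO* values. That median is therefore not independent of the differences.

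**Figure D4:**
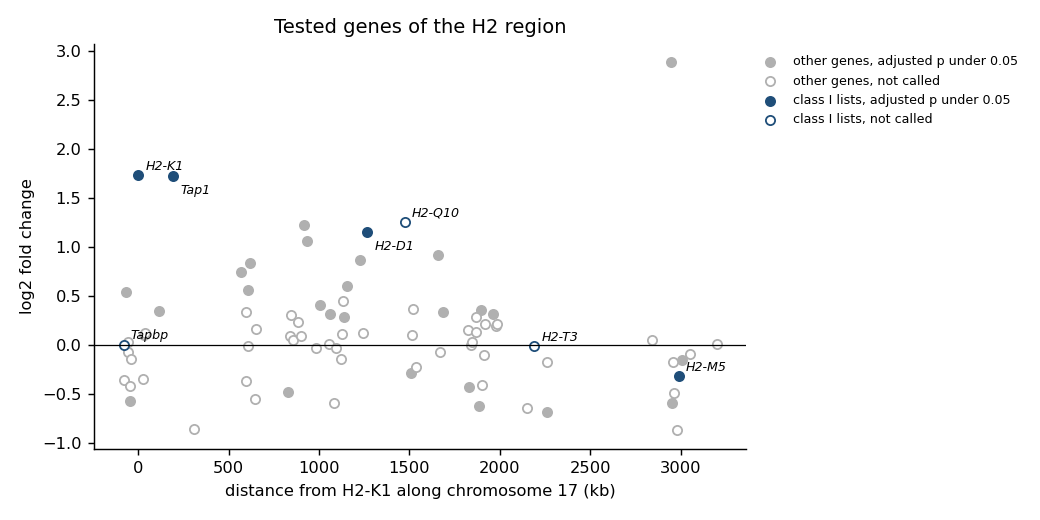
Log2 fold change of the 81 tested genes between *Tapbp* and *H2-M2* against distance from *H2-K1* in kb, with genes of the class I lists in blue and filled points at an adjusted p under 0.05. Higher and lower genes both occur along the interval.

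Fibroblast feeders express class I genes, and some of their markers differed between the groups. Of 18 feeder markers, 6 were tested, 3 were higher and 0 were lower by limma, against 16.4% and 18.4% over all genes tested. At an unadjusted p under 0.05, limma gave 4 higher and 0 lower. Normalized counts summed over the 18 were 350 to 369 in *Ctrl* and 578 to 643 in *Tet iTKO*. Much of this sum came from *Col1a1*, with 181, 170 and 150 in *Ctrl* and 304, 281 and 349 in *Tet iTKO*. The tested marker *Acta2* had 46, 45 and 56 against 50, 44 and 42 and was not called. The 3 markers called higher were the collagen genes *Col1a1* (log2 fold change 0.89), *Col1a2* (1.17) and *Col3a1* (1.36). With the GC content and length correction these values were 0.27 for *Col1a1*, where the call was lost (limma adjusted p = 0.108), 0.73 for *Col1a2* and 1.04 for *Col3a1*. *Thy1*, the marker gated against, had 30, 46 and 41 in *Ctrl* and 47, 35 and 23 in *Tet iTKO*, *Fap* was at 0 in all samples, and *Postn* and *Twist2* were at or under 3 in all. *Dcn* had 2, 3 and 15 against 1, 2 and 6, and *Lum* had 2, 8 and 1 against 2, 2 and 1. *Tagln* had 13, 22 and 22 against 34, 38 and 34 (limma adjusted p = 0.056, and 0.044 with the correction). *Fbn1* had 2, 1 and 2 against 15, 10 and 6. It was under the mean needed and was called higher when all genes with a mean above 0 were tested (limma adjusted p = 0.025). The part of feeder RNA in the class I values was not tested.

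Of 12 immune cell markers, 2 were tested and limma called 0, also at an unadjusted p under 0.05, and the summed normalized counts were 37 to 61 in *Ctrl* and 65 to 98 in *Tet iTKO*. The defining markers *Ptprc*, *Ms4a1* and *Csf1r* were at 0 in all 6 samples. *Cd79a* had 5, 4 and 0 against 15, 16 and 9, and *Lyz2* had 4, 2 and 5 against 9, 8 and 10.

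**Figure D5:**
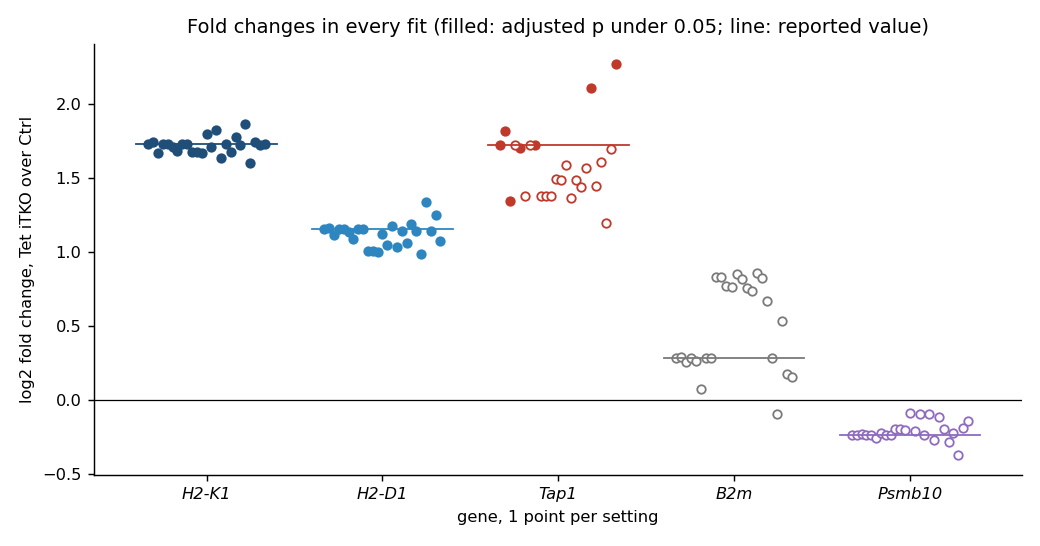
Log2 fold changes of 5 class I genes in every fit, with 1 point per setting, filled where the adjusted p is under 0.05, and a line at the reported value. *H2-K1* and *H2-D1* are filled throughout, *Tap1* is filled in 6 of 23 alternatives, and *B2m* and *Psmb10* are open throughout.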

How the data were processed

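Smart-Seq2 libraries of 3 *Ctrl* and 3 *Tet iTKO* samples were analysed. The authors used STAR, kept reads that aligned once, counted them per gene with HTSeq 0.7.1 and divided by DESeq2 1.26.0 size factors. The submitters' notes name mm9. The study's methods give the stranded setting of HTSeq, although Smart-Seq2 libraries do not mark strand. What that setting did to the counts, also where genes overlap on opposite strands, was not tested. The deposited values have the unit score: normalized counts rounded to whole numbers, so read depth is not given and count models were not used. GENCODE M21 (GRCm38) paired 20775 of 22380 identifiers with symbols.

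Log2(normalized count + 1) was compared with limma 3.58.1 in R 4.3.3 (eBayes with trend, Benjamini-Hochberg adjustment) wherever the mean over samples reached 10. A value of 3 was taken as the floor, which covers counting error only. Named were every class I gene, list genes with an adjusted p under 0.05 and an absolute log2 fold change of at least 0.5, *Psmb5*, *Psmb6*, *Psmb7*, *Irf1*, *Irf2*, *Rfx5*, *Rela*, *Ciita* and the *Tet* genes and *Khdc3*; others were named after their values were seen. Some genes of the lists are not reported here by name. The members and lists were chosen with earlier results of these data known.

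Alternatives were other pseudocounts, filters, scalings, no trend, a replicate block, a loess correction (span 0.3) and fits without each sample. The correction's form was left unspecified in the plan: the first form run (joint fit, degree 1, gaussian) is kept as the planned one, and 8 further forms run after its calls were seen are reported as added. The code was tested on simulated data. Tables used Python 3.11.15, pandas 2.3.3, NumPy 2.4.6 and SciPy 1.17.1.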

Additional observations from a re-analysis of the deposited data

How the results depend on the processing

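*H2-K1* and *H2-D1* kept their direction and call in all 24 alternatives each. Class I genes called higher numbered 2 to 3 without each sample in turn, with 0 lower. Over all genes, 1731 higher and 1934 lower calls became 1075 and 1217 without the variance trend and 521 and 137 when a log2 fold change of 1 or more was also needed. Fits without each sample gave 1335 to 1635 and 1642 to 1722. The loess correction on GC content and length was run in 9 forms, 8 of them after seeing the data. The first form gave 1014 higher and 2068 lower calls (32.9% higher against 47.2% without it), and with the replicate block 1035 and 2135. The 4 other gaussian forms gave 1025, 1008, 1021 and 1024 higher calls, and the 4 symmetric (robust) forms gave 1325 to 1361, so the split depends on the form. Over the 9 forms lower calls ran from 1416 to 2134 and the median of all genes from -0.062 to 0.015. *H2-K1* stayed between 1.63 and 1.82 and *H2-D1* between 1.00 and 1.19 in them, and *Tap1* had adjusted p of 0.055 to 0.096 from limma. Without the correction, log2 fold changes correlated with GC content (Spearman 0.258) and length (0.293) across 10457 genes, which are not independent replicates. The cause of these shifts was not tested.

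Signs turned for uncalled and for some called values. Among the uncalled were *Tapbp* (0.021 with quantile normalization, -0.0833 to 0.0637 without each sample), *B2m* (-0.10 to 0.67 without each sample) and the log2 ratio of *Psmb10* to *Psmb7* (-0.031 to 0.352 without each sample). *Tet2* turned to -0.14 with the correction, with and without the block, to -0.112, -0.0327, -0.0669, -0.0475, -0.0543 and -0.0242 in other forms, and ran from -0.0189 to 0.255 without each sample. *Tet1*, called higher in the reported fit, turned to -0.0804 with the correction, with and without the block, where its call was lost. Of the mESC markers called in the reported fit, *Esrrb* turned from 0.285 to -0.045 and *Dppa5a* from -0.39 to 0.15 with the correction.

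Same-numbered samples deviated with correlations of 7e-04, -0.0054 and -0.0031, so no pairing by replicate number was seen. This does not show that the design was unpaired. The replicate block gave 1762 higher and 1980 lower calls, and changed no call among the class I genes. The study's reporting summary describes 3 lines per genotype from different embryos, and the legend of its RNA-seq figure names 3 independent experiments. With 3 samples a group and low counts, small differences in *B2m*, *Tap2* and *Psmb8* were not detectable.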
